A study of Mus musculus with 6 samples.

Results

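The IKK kinases and the NF-κB subunits are the core of the pathway that turns inflammatory signals into transcription. The 10 genes described here were chosen by name as the genes of the IKK family and of the Rel family, and all 10 were found among the 27240 genes of the deposited table. They were Ikbkb, Chuk and Ikbkg for the canonical IKK complex, Ikbke and Tbk1 for the IKK-related kinases, Rela, Relb and Rel for the subunits with a transactivation domain, and Nfkb1 and Nfkb2 for the precursor subunits. All 10 also passed the filter on low counts that left 16239 genes for testing.

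RNA was taken from primary peritoneal macrophages of mice, the phagocytes of the abdominal cavity. Both groups are labelled as treated with oxidised low-density lipoprotein (oxLDL), the modified lipoprotein that macrophages engulf in the arterial wall. They comprised 3 wild-type (WT) and 3 knockout (KO) libraries. The title of the series is about DCLK1, a doublecortin-like kinase, and IKKβ as its binding partner, but the labels give neither the deleted part of a gene nor a strain, age, dose or length of treatment. Nor do they state that the libraries of a group were separate animals or cultures, so the spread behind every p-value is that of these libraries alone and could be technical. Cells without oxLDL were not analysed here.

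In resting cells NF-κB dimers are held in the cytoplasm by IκB proteins. In the canonical pathway IKKβ, with IKKα and the scaffold NEMO, phosphorylates IκB, which is then ubiquitinated and degraded, and dimers such as RelA with the Nfkb1 product enter the nucleus. In the non-canonical pathway IKKα triggers the processing of the Nfkb2 product, which pairs with RelB. IKKε and TBK1 act mainly in the interferon response. Control of the kinases is largely through phosphorylation and protein binding, which transcript counts do not measure. The macrophage is a main producer of NF-κB-driven cytokines in atherosclerosis.

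Total counts lay between 68053008 and 79090732 per library, and each of the 10 genes had between 2612 and 13640 counts in every library. Counting error alone was therefore 0.856% to 1.96% of a value. The replicate coefficient of variation was 0.567% to 7.61%, so the spread between libraries and not the depth limited the comparison for most of these genes. Wild-type replicate 1 stood apart from the other libraries on the first principal component, at -60.7 against -16.2 to 37.3, so the results are also given without it where it matters. That component held 25.9% of the variance and also separated the groups, with WT at -60.7 to -5.94 and KO libraries at 10.9 to 37.3. Dclk1 had 494, 498 and 584 counts in WT and 415, 431 and 377 counts in KO libraries (log2 fold change -0.37, edgeR adjusted p = 0.332), which checks the genotype labels only weakly, since the deleted part is not given. The macrophage genes Adgre1, Csf1r and Cd68 were at 1057, 1021 and 1994 CPM (counts divided by library size, with trimmed-mean TMM scaling between libraries) in the mean of the wild-type libraries.

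Across the 10 genes, 3 subunit genes had clearly separated groups. Relb, Nfkb2 and Rela were at 0.812, 0.801 and 0.836 times their wild-type level in KO libraries. The 3 genes of the canonical IKK complex were at 0.961 times the wild-type level for Ikbkb, 1.06 times for Chuk and 1.003 times for Ikbkg, each with groups that overlapped. None of the 10 passed edgeR's quasi-likelihood test at an adjusted p of 0.05 over all genes, a threshold that 11 of 16239 genes (0.0677%) passed, 0.0431% being lower in knockout. At an unadjusted p under 0.05 there were 4 of the 10, all lower in knockout, where 10.4% of all tested genes passed that p and 5.71% were lower. The same 4 genes had groups that did not overlap, all lower, against 17.6% of all tested genes in either direction, 8.89% lower and 8.68% higher. DESeq2, an alternative count test, called 3 of the 10 on the same counts, Nfkb2, Relb and Rela, all lower, where it called 3.44% of the genes it adjusted and 2.06% as lower. The fitted value was below 0 for 7 of the 10, against 50.5% of all tested genes. The median log2 fold change of the 10 was -0.08, against -0.0019 over all tested genes, and -0.05 without wild-type replicate 1.

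**Figure D1:**
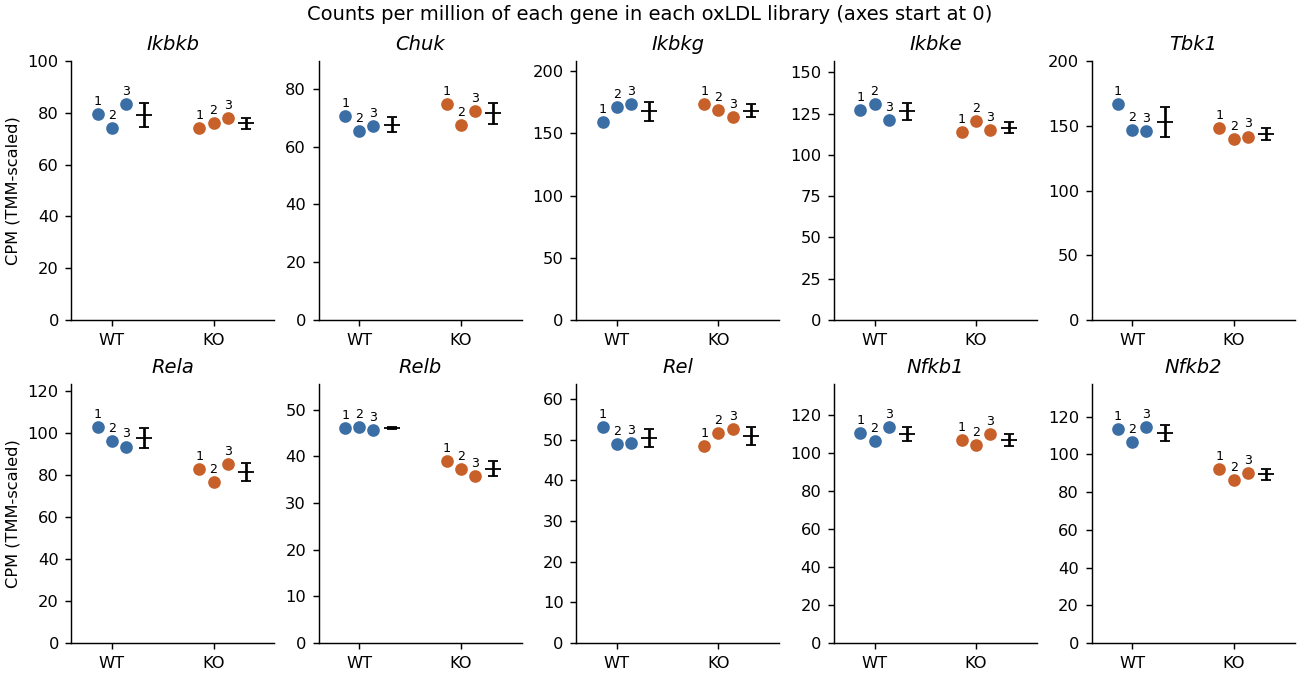
CPM of each of the 10 genes (y axis, TMM-scaled, starting at 0) in the 3 wild-type (blue) and 3 knockout (orange) libraries; numbers are replicate numbers and bars are the mean with its SD. The knockout points of Rela, Relb and Nfkb2 lie below all wild-type points, while those of Ikbkb, Chuk, Ikbkg, Rel and Nfkb1 overlap them.

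Ikbkb (ENSMUSG00000031537, chromosome 8, 22659212 to 22706589, minus strand, taken as GRCm38) encodes IKKβ, the kinase that phosphorylates IκB. Its level was 79.8, 74.3 and 83.4 CPM in WT and 74.1, 76.0 and 78.2 CPM in KO libraries. The knockout values lay within or just below the wild-type range, and the wild-type group alone spanned more than the difference between the means. The log2 fold change was -0.06 (SE 0.0565, edgeR adjusted p = 0.791), and its 95% interval ran from 0.877 to 1.05 times the wild-type level. Leaving out wild-type replicate 3 gave a log2 value of -0.02, leaving out wild-type replicate 2 gave -0.10, and leaving out knockout replicate 1 gave -0.04.

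Chuk (chromosome 19, 44073335 to 44107480, minus strand) encodes IKKα, the kinase shared by the canonical and non-canonical pathways. It was at 70.5, 65.4 and 67.1 CPM in WT and 74.8, 67.6 and 72.5 CPM in KO libraries. The groups overlapped and the knockout mean was the higher of the pair, with an interval of 0.964 to 1.16 times the wild-type level (edgeR adjusted p = 0.689). Ikbkg (chromosome X, 74393290 to 74453778, plus strand) encodes NEMO, the ubiquitin-binding scaffold without which the canonical complex is not activated. It was at 159, 171 and 173 CPM in WT and 173, 168 and 163 CPM in KO libraries, with wild-type replicate 1 the lowest of the 6. Its interval was 0.926 to 1.09 times the wild-type level (edgeR adjusted p = 0.990), and its sign changed with the scaling and with the libraries used. Ikbkg shares 418 exonic bases with G6pdx on the opposite strand, and the use of strand in the counting is not stated. G6pdx was at 436 ± 7.08 CPM (SD, n = 3) in WT and 432 ± 9.60 CPM (SD, n = 3) in KO libraries (edgeR adjusted p = 0.929).

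Neither IKK-related kinase passed the test. Ikbke (chromosome 1, 131254343 to 131279606, minus strand), which encodes the inducible kinase IKKε, was at 127, 131 and 121 CPM in WT and 114.0, 120.4 and 114.9 CPM in KO libraries. The highest knockout value was at -0.447% relative to the lowest wild-type value, and on the scale of the deposited FPKM they overlapped, with 12.02 for wild-type replicate 3 and 12.03 for knockout replicate 2. The log2 fold change was -0.12 (SE 0.0481) with an unadjusted p of 0.0434 and an edgeR adjusted p = 0.452. On the opposite strand Ikbke shares 65 exonic bases with Gm28913 and 159 with Gm28914. Gm28913 was at 0.813 CPM in the mean of WT and 0.737 CPM in that of KO libraries. Gm28914 had 8 counts in wild-type replicate 2 and 0 in every other library. Tbk1 (chromosome 10, 121546455 to 121586787, minus strand), the kinase that phosphorylates IRF3, was at 167, 147 and 146 CPM in WT and 149, 140 and 142 CPM in KO libraries. Wild-type replicate 1 was well above the other libraries, and without it the log2 fold change moved from -0.10 to -0.03 (edgeR adjusted p = 0.657 and 0.908).

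Among the subunits with a transactivation domain, Rela and Relb had separated groups and Rel did not. Rela (chromosome 19, 5637483 to 5648130, plus strand) encodes RelA, also called p65, the main activating subunit of the canonical pathway. It was at 102.8, 96.1 and 93.7 CPM in WT and 82.7, 76.8 and 85.2 CPM in KO libraries. Every knockout library was below every wild-type library, and the highest knockout value was at -9.05% relative to the lowest wild-type value. Rela thus had a log2 fold change of -0.26 (SE 0.0592, edgeR adjusted p = 0.169, DESeq2 adjusted p = 0.0119), or 0.760 to 0.921 times the wild-type level.

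Relb (chromosome 7, 19606217 to 19629438, minus strand) encodes RelB, the activating subunit of the non-canonical pathway. It was at 46.1, 46.2 and 45.7 CPM in WT and 39.0, 37.2 and 35.7 CPM in KO libraries. The wild-type values had a coefficient of variation of 0.567%, below the counting error of at least 1.67% for Relb, and the edgeR test uses a spread moderated over genes. The highest knockout value was at -14.6% relative to the lowest of them. The log2 fold change was -0.30 (SE 0.0556, edgeR adjusted p = 0.110, DESeq2 adjusted p = 0.0056). Rel (chromosome 11, 23736847 to 23770970, minus strand) encodes c-Rel, a subunit abundant in lymphoid cells that also drives interleukin-12 family genes in macrophages. It was at 53.1, 49.0 and 49.3 CPM in WT and 48.5, 51.6 and 52.6 CPM in KO libraries, with the groups fully interleaved (interval 0.917 to 1.11 times, edgeR adjusted p = 0.965).

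Of the precursor genes, Nfkb2 had separated groups and Nfkb1 did not. Nfkb1 (chromosome 3, 135584655 to 135691546, minus strand) encodes p105, the precursor of the p50 subunit that pairs with RelA. It was at 110.4, 106.1 and 113.4 CPM in WT and 106.5, 103.9 and 110.1 CPM in KO libraries, which overlap widely (interval 0.901 to 1.05 times, edgeR adjusted p = 0.820). Nfkb2 (chromosome 19, 46304320 to 46312385, plus strand) encodes p100, the precursor of the p52 subunit that pairs with RelB. It was at 113.7, 106.7 and 114.4 CPM in WT and 92.1, 86.2 and 90.1 CPM in KO libraries, and the highest knockout value was at -13.7% relative to the lowest wild-type value. Its log2 fold change of -0.32 (SE 0.0498) had the smallest p of the 10 (edgeR unadjusted p = 0.00029, adjusted p = 0.080, DESeq2 adjusted p = 6.3e-05). On the opposite strand Nfkb2 shares 531 exonic bases with AC114539.1, whose level was not analysed here, and 299 with Psd, which was at 5.65 ± 0.459 and 5.10 ± 1.19 CPM (SD, n = 3 each). Reads of these overlaps cannot be told apart without strand.

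**Figure D2:**
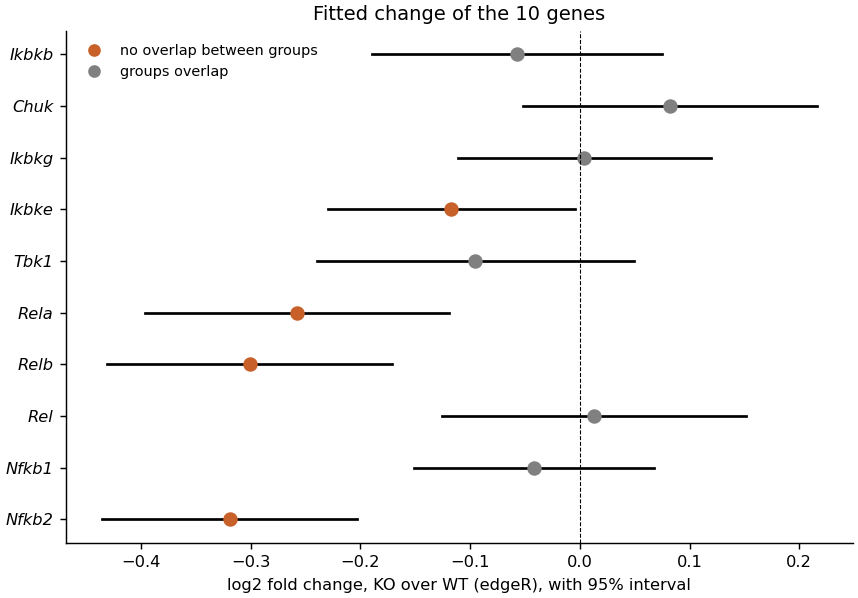
Fitted log2 fold change of knockout over wild type for each of the 10 genes (x axis), with 95% intervals as lines and orange points where the 3 knockout and 3 wild-type libraries do not overlap. The intervals of Rela, Relb, Nfkb2 and, narrowly, Ikbke lie below 0, from -0.44 to -0.0046, and those of the other 6 genes include 0.

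Without any 1 of the 6 libraries, the log2 fold change stayed between -0.35 and -0.30 for Nfkb2, between -0.33 and -0.27 for Relb and between -0.29 and -0.22 for Rela. The edgeR adjusted p over these fits ran from 0.095 to 0.262 for Nfkb2, from 0.188 to 0.354 for Relb and from 0.269 to 0.396 for Rela, so none of the 3 passed in any of them. Without wild-type replicate 1 the values were -0.31, -0.30 and -0.22.

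The transcript start regions were read for the κB consensus, the sequence that NF-κB dimers bind, because several of these genes are known to be targets of the pathway itself. RefSeq start regions of GRCm38.p6, from 250 bases before to 50 bases after a start, were found for 7 of the 10 genes. The consensus was searched on both strands, with overlapping matches allowed. It occurred in 8.46% of the 32851 start regions of all genes. Among the 12 regions of the 7 genes it occurred in 4, the 1 of Rel and all 3 of Nfkb2. The Nfkb2 regions from 46305445 to 46305744 and from 46305680 to 46305979 overlap, and the only match of the latter is also in the former. By gene, 2 of the 7 had a match, while the 8.46% counts regions. These lines are shown because they hold the matches, in capitals and read on the strand of the gene, at the start of Rel and at the most upstream of the 3 RefSeq starts of Nfkb2. The annotated Nfkb2 gene begins further upstream, and both Nfkb2 stretches lie within exons of GENCODE M21.
Rel (chr11:23771030-23771089, minus strand): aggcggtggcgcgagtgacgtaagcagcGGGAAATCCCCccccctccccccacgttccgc
Nfkb2, upstream stretch (chr19:46304688-46304717, plus strand): ggatcgtcacGGGAATTCCCCccctcgggg
Nfkb2, stretch next to the start (chr19:46304713-46304736, plus strand): cggggggccgaaaGGGGCTTTCCc

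The first matches of each stretch began 92 bases before the start in Rel and 39 and 11 bases before it in Nfkb2. Of these 2 genes Nfkb2 had separated groups and Rel did not, while Rela had separated groups and no match in this window. A match is a description of letters and no evidence of binding.

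Ratios between partner genes within a library do not depend on the scaling between libraries. The FPKM ratio of Relb to Nfkb2, the partners of the non-canonical dimer, was 0.478, 0.510 and 0.471 in WT and 0.500, 0.510 and 0.468 in KO libraries. The groups overlapped, and the mean log2 difference was 0.02 (exact two-sided permutation p = 1). The ratio of Rela to Nfkb1, the partners of the canonical dimer, was 3.66, 3.56 and 3.24 in WT and 3.05, 2.90 and 3.04 in KO libraries, a fold of 0.861. All 3 knockout ratios were below all 3 wild-type ratios (exact two-sided permutation p = 0.1, the smallest that 3 against 3 allows, adjusted p = 0.3 over 6 ratios). The ratio of Rel to Nfkb1 was 0.742 ± 0.0375 and 0.770 ± 0.0334 (SD, n = 3 each, exact permutation p = 0.5).

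Among the kinases, the ratio of Ikbkb to Chuk was 0.301, 0.303 and 0.331 in WT and 0.264, 0.300 and 0.287 in KO libraries. The groups did not overlap, by a narrow margin, and the fold was 0.909 (exact permutation p = 0.1, adjusted p = 0.3), while each gene on its own had overlapping groups. The log2 difference of -0.14 was -0.09 without knockout replicate 1 and -0.09 without wild-type replicate 3. The ratio of Ikbkb to Ikbkg was 0.201 ± 0.0146 and 0.192 ± 0.0112, and that of Ikbke to Tbk1 was 0.358 ± 0.0275 and 0.352 ± 0.0203 (SD, n = 3 each). Their exact permutation p-values were 0.4 and 0.8. No ratio could pass an adjusted p of 0.05 in this design.

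**Figure D3:**
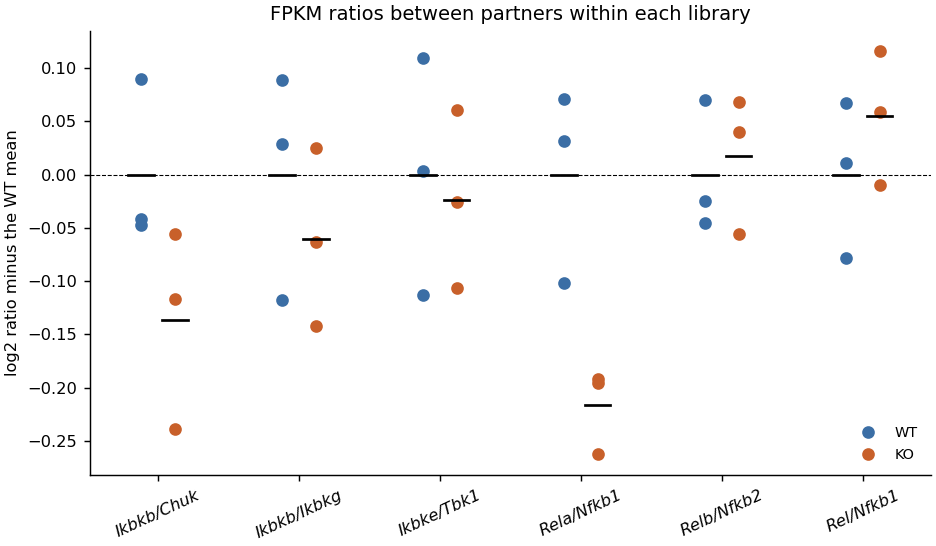
Log2 FPKM ratio of each of 6 partner pairs in each library (y axis), set relative to the wild-type mean of that pair, with black bars at the group means. The knockout ratios of Rela to Nfkb1 and of Ikbkb to Chuk lie below all wild-type ratios, at mean differences of -0.22 and -0.14, and the Relb to Nfkb2 ratios interleave.

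Levels of the 10 genes were compared with each other per length, and the order depended on the length used. In the deposited FPKM, Tbk1 was the highest in WT libraries (35.1 ± 2.77), followed by Rela (28.4 ± 1.44), Nfkb2 (21.8 ± 0.931) and Ikbkg (18.5 ± 0.821). Ikbke (12.5 ± 0.450) and Chuk (11.9 ± 0.502) overlapped, and Relb (10.6 ± 0.0519), Nfkb1 (8.15 ± 0.305), Rel (6.05 ± 0.291) and Ikbkb (3.71 ± 0.230) followed with ranges apart (SD, n = 3 each). In knockout libraries Ikbkg (18.7 ± 0.583) stood above Nfkb2 (17.6 ± 0.604) with overlapping ranges, and Chuk and Ikbke also changed places. Tbk1 was above 92.6% and Ikbkb above 56.8% of all tested genes on mean FPKM.

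The lengths behind these FPKM values were recovered from the counts. For 98.7% of 10971 genes with at least 100 counts in each library, count over FPKM was proportional, within 2%, to the summed length of all annotated exons of the gene. For Ikbkb those exons of 14 annotated transcripts sum to 19078 bases, while its longest coding transcript has 3977 bases in 21 exons. For Nfkb1 the sums were 12061 and 4117 bases and for Ikbke 9018 and 3251 bases, while Rel, with 1 annotated transcript of 7466 bases, had the same value for both.

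Set on the longest coding transcript instead, the wild-type level of Ikbkb was 19.9 ± 1.16 CPM per kilobase, beside 19.3 ± 0.740 for Chuk and 24.0 ± 1.11 for Ikbkg (SD, n = 3 each). The Ikbkb and Chuk ranges overlapped on this scale, where FPKM had put Chuk at 11.9 and Ikbkb at 3.71. Tbk1 remained first at 50.7 ± 3.86 CPM per kilobase, Ikbke (38.9 ± 1.52) and Rela (35.9 ± 1.75) followed with overlapping ranges, and Rel was last at 6.76 ± 0.303. Which transcripts the cells make cannot be read from gene counts, and comparisons between genotypes of a single gene do not depend on this length.

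**Figure D4:**
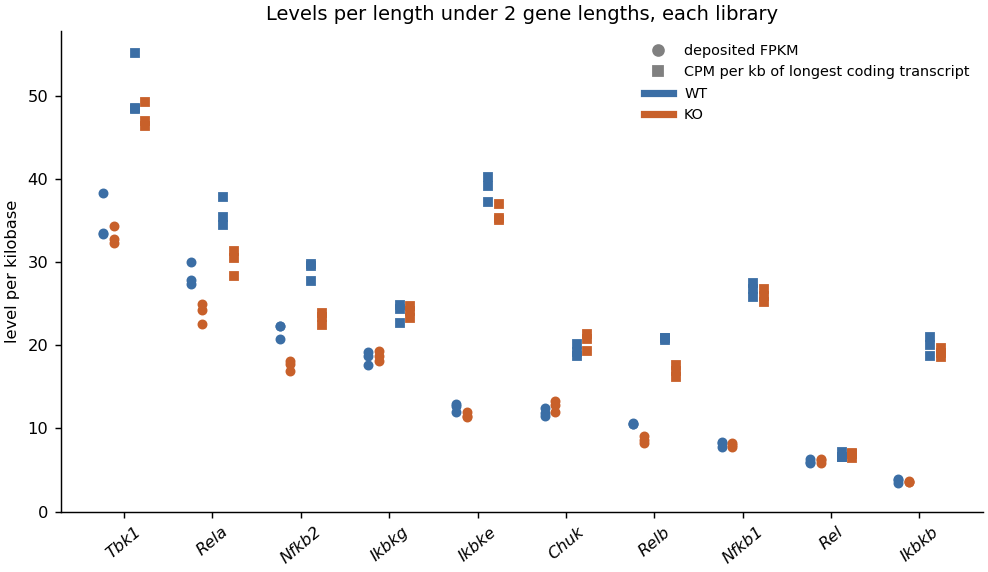
Level per kilobase of each gene in each library (y axis), as deposited FPKM (circles) and as CPM per kilobase of the longest coding transcript (squares), with wild type in blue and knockout in orange. Ikbkb moves from 3.71 FPKM, the lowest of the 10 in wild type, to 19.9 CPM per kilobase, beside Chuk at 19.3.

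The makeup of the subunit pool was described on both lengths. The summed FPKM of the 5 subunit genes was 77.5, 72.8 and 74.6 in WT and 65.3, 62.1 and 65.6 in KO libraries, so every knockout sum was below every wild-type sum. Within that sum Nfkb2 made up 29.1% ± 0.826 in WT and 27.3% ± 0.376 in KO libraries, and Rela 37.9% ± 1.09 and 37.2% ± 0.930. Nfkb1 took 10.9% ± 0.368 and 12.4% ± 0.188, and Rel 8.06% ± 0.151 and 9.57% ± 0.537 (SD, n = 3 each). With the longest coding transcripts the share of Nfkb1 was 22.4% ± 0.632 and 25.2% ± 0.389. The directions for Nfkb1, Rel and Nfkb2 were the same, with no overlap of groups on either length. The share of Relb overlapped on FPKM (14.1% ± 0.401 and 13.5% ± 0.726) but not on the coding length (17.5% ± 0.460 and 16.4% ± 0.853). Each share depends on the other genes of the sum. The CPM of Nfkb1 and Rel themselves was at 0.972 and 1.009 times the wild-type level, with overlapping groups. The canonical IKK complex differed from this, with a summed FPKM of 33.8, 33.6 and 34.9 in WT and 36.0, 34.3 and 34.7 in KO libraries, which overlap.

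Other genes of the pathway were counted by list. Of 17 IκB proteins and feedback inhibitors, none passed edgeR's test over all genes and DESeq2 called 3, all lower. DESeq2 called 2.06% of all genes it adjusted as lower. At an unadjusted edgeR p under 0.05 there were 4 lower and 1 higher, with a list median of -0.16. Of all tested genes, 5.71% were lower and 4.73% higher at that p. Nfkbia, which encodes IκBα, the main inhibitor of RelA dimers, was at 75.6 ± 5.40 and 57.4 ± 5.57 CPM (log2 fold change -0.40, edgeR adjusted p = 0.151, DESeq2 adjusted p = 0.00097). Bcl3, an IκB-like cofactor of the p50 and p52 subunits, was at 29.2 ± 1.34 and 23.3 ± 0.539 CPM (edgeR adjusted p = 0.131, DESeq2 adjusted p = 0.0167). Tnip1, a partner of the ubiquitin editor A20, was at 163 ± 7.06 and 140 ± 1.72 CPM (edgeR adjusted p = 0.131, DESeq2 adjusted p = 0.0044), and Nfkbie, which encodes IκBε, at 23.6 ± 5.67 and 17.2 ± 0.426 CPM (edgeR adjusted p = 0.371, DESeq2 adjusted p = 0.0774). These 4 genes were picked because their unadjusted p was under 0.05 in edgeR and their groups did not overlap. Over all 17 genes, groups did not overlap for 6 that were lower and 1 that was higher. The shares of all tested genes were 8.89% and 8.68%.

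Of 39 receptors, adaptors and kinases that act upstream of IKK, none passed edgeR's test and DESeq2 called 4, all lower. Among all genes it adjusted, DESeq2 called 2.06% as lower. At an unadjusted edgeR p under 0.05 there were 8 lower and 1 higher, with a median of -0.03. The shares of all tested genes at that p were 5.71% lower and 4.73% higher. Tlr2, a receptor for bacterial lipoproteins, was at 161 ± 19.1 and 114 ± 6.81 CPM (edgeR adjusted p = 0.104, DESeq2 adjusted p = 1.41e-06), and Traf2, an adaptor of the tumour necrosis factor receptors, at 47.5 ± 3.18 and 38.8 ± 0.786 CPM (edgeR adjusted p = 0.161, DESeq2 adjusted p = 0.0169). Tnfrsf1b, a receptor of tumour necrosis factor, was at 1585 ± 11.4 and 1486 ± 15.3 CPM (edgeR adjusted p = 0.161, DESeq2 adjusted p = 0.295), and Ticam2, an adaptor of Toll-like receptor 4, at 77.3 ± 2.87 and 66.5 ± 2.65 CPM (edgeR adjusted p = 0.198, DESeq2 adjusted p = 0.0456). Of 15 tested adaptors and substrates of TBK1 and IKKε, 3 were lower at that p and none higher (median -0.08), and DESeq2 called 1, which was lower. Among these the RNA sensor genes Ifih1 and Ddx58 were at 76.7 and 39.9 CPM in WT and 66.3 and 36.2 CPM in KO libraries (edgeR adjusted p = 0.243 and 0.410, DESeq2 adjusted p = 0.0741 and 0.491).

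Of 12 tested genes of the IKK chaperones and the ligase that marks IκB for degradation, 2 were lower at that p (median -0.02). Hsp90ab1, a chaperone of IKK, was at 1211 ± 13.1 and 1156 ± 11.1 CPM, and Ube2m, which loads the ubiquitin-like NEDD8 onto cullins, at 43.5 ± 5.40 and 37.5 ± 1.15 CPM (edgeR adjusted p = 0.362 and 0.472, SD with n = 3 each). Of 25 cofactors and modifiers of Rel proteins, 2 were higher at that p and none lower (median 0.05). Groups did not overlap for 8 of the 25 that were higher and 0 that were lower. The shares of all tested genes were 8.68% higher and 8.89% lower. Commd1, which promotes RelA degradation, was at 19.5 ± 1.501 and 22.5 ± 0.338 CPM, and Ncoa2, a coactivator, at 71.3 ± 1.88 and 77.2 ± 1.22 CPM (edgeR adjusted p = 0.414 and 0.433). None of these 5 lists had a member past edgeR's threshold over all genes, and DESeq2 called none in the last 2 lists. Over all tested genes 928 (5.71%) were lower and 768 (4.73%) higher at an unadjusted edgeR p under 0.05.

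Of 56 tested target genes of NF-κB, 2 passed edgeR's test over all genes, both lower, against 0.0431% of all tested genes, and DESeq2 called 18, all lower, against 2.06% of the genes it adjusted. In the same list 29 were lower and 0 higher at an unadjusted edgeR p under 0.05, against 5.71% and 4.73% of all tested genes. The list median was -0.27, and -0.21 without wild-type replicate 1. The lists share genes, so their counts are not separate. Nfkbia, Nfkbie, Tnip1 and Tlr2, given above, are also in this target list, as are Nfkbiz, Tnfaip3, Traf1, Birc3 and Cd40. Ticam1 and Traf3 are in both the upstream list and the TBK1 and IKKε list. Tnf, the tumour necrosis factor gene, fell to 0.630 times (edgeR adjusted p = 0.027), and Plau, the urokinase gene, to 0.773 times its wild-type level (edgeR adjusted p = 0.0495). Tnf did not pass without wild-type replicate 1 (0.085), and its adjusted p was 0.034 to 0.117 over the fits that left out 1 library, while that of Plau was 0.078 to 0.183 and passed in none. Ccl5 and Icam1 were at 0.658 and 0.690 times (edgeR adjusted p = 0.076 for both, DESeq2 adjusted p = 1.05e-10 and 5.11e-09).

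**Figure D5:**
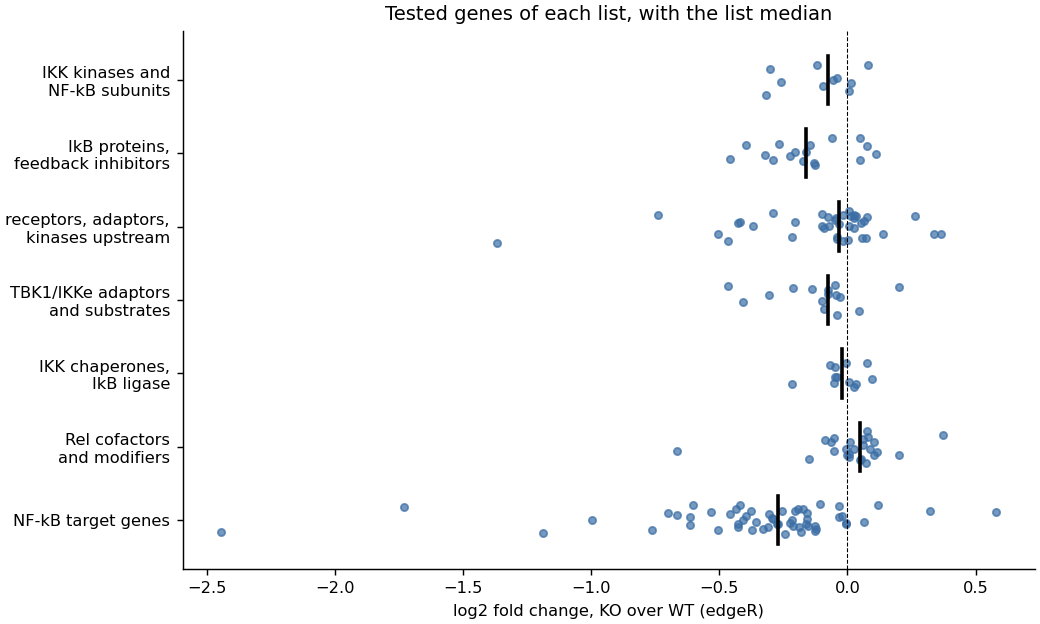
Log2 fold change of knockout over wild type (x axis) for each tested gene of 7 lists, with black bars at the list medians and random vertical scatter. The 10 kinases and subunits lie between -0.32 and 0.08, and the NF-κB target list has the lowest median, -0.27.

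Markers of other cells in the peritoneal wash moved in part with these values. The summed level of 7 dendritic cell markers, cells known for high Relb, was 30.4 to 36.6 CPM in WT and 24.2 to 25.6 CPM in KO libraries, and 2 of 6 tested were lower at an unadjusted edgeR p under 0.05, against 5.71% of all tested genes. Its defining markers Flt3 and Zbtb46 were at 1.41 and 1.34 CPM in WT and 1.44 and 1.30 CPM in KO libraries, and Siglech was at 0 in all libraries. Fscn1 and Ccr7 made up most of the sum, at 16.9 and 11.7 CPM in WT and 11.8 and 9.34 CPM in KO libraries. Ccr7 is also in the NF-κB target list above. Sums of T and NK cell markers (14.6 to 18.8 and 11.5 to 13.0 CPM), mast cell and basophil markers (4.98 to 6.10 and 3.02 to 4.25 CPM), neutrophil markers (23.6 to 26.3 and 20.7 to 23.0 CPM) and fibroblast and mesothelial markers (219 to 222 and 191 to 212 CPM) were also lower in KO libraries, and B cell markers (0.956 to 1.40 and 1.57 to 2.73 CPM) were higher. Eosinophil markers overlapped. Only 1 of the 6 neutrophil markers passed the filter on low counts (log2 fold change -0.19), and Ly6g was at 0 in all libraries. Of the 11 fibroblast and mesothelial markers, 7 had a log2 fold change below 0. At an unadjusted edgeR p under 0.05, 2 of these 11 were lower and 1 was higher. Below 0 were also 6 of 7 tested T and NK cell markers and 5 of 5 tested mast cell and basophil markers. The part of all these cell types in the Rela, Relb and Nfkb2 values was not tested, and in bulk RNA fewer cells of a type and less RNA per cell cannot be told apart.

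Within the macrophage list Itgam was at 327 ± 91.4 and 513 ± 91.6 CPM, and the list's sum, 20844 to 22023 CPM in WT and 13006 to 13172 CPM in KO libraries, was set by Lyz2, the lysozyme gene, at 16349 and 7970 CPM. Large peritoneal macrophage markers summed to 49.5 to 57.4 CPM in WT and 71.1 to 73.1 CPM in KO libraries, a sum set by Cd5l, which had a mean of 57.0 CPM over all libraries and a log2 fold change of 0.50 (edgeR adjusted p = 0.0756). The median of that list was -0.16, and 3 of its 6 tested genes were below 0. Mitochondrially encoded messenger RNAs summed to 19566 to 20861 and 21456 to 22953 CPM, and their part was not tested.

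The genes whose levels followed Ikbkb most closely over the 6 libraries were sought among 8225 genes with a mean of at least 10 CPM. They were Sec61b (Pearson r = 0.990), Soga1 (0.989) and Gm43737 (0.982). These are the highest of many values over only 6 libraries that share their groups, and they are given as a description.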

How the data were processed

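Poly(A) RNA of 6 samples of mouse peritoneal macrophages was sequenced as paired ends, per the labels' protocols. The aligner HISAT2 2.0 is listed, per the submitters' processing notes. Neither a counter nor an annotation or genome build is given in the sources used here. The authors deposited a whole-number count for every gene and library. The FPKM columns, so called per the file headers, were scaled by the authors. Another 12 columns of per-sample values match no sample and were not used. Of 27240 gene IDs, 27169 are in GENCODE M21, and 8 of the 10 genes had the same coordinates there. Coordinates are as deposited.

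Groups follow the genotype in the titles. Counts were filtered with filterByExpr, scaled by TMM and tested two-sided with edgeR 4.0.16 quasi-likelihood fits (R 4.3.3) with genotype as the only term, adjusted by Benjamini-Hochberg over 16239 genes and called at 0.05. Folds are knockout over wild type, and levels are CPM on TMM-scaled sizes. Intervals are at the 95% level. Ratios were tested with exact permutation over samples (SciPy 1.17.1). The scripts were tested on simulated data. There the edgeR fit recovered 4% of 1.25-fold changes, 66% of 1.5-fold and 94% of 2-fold changes, in genes of at least 10 CPM. A gene that did not pass can therefore still have changed by about 1.25-fold. Chi-square values between replicate libraries, divided by degrees of freedom, were 39.7 to 47.0, and no library was treated as a duplicate. Alternatives were other filters and scalings, DESeq2 1.42.0, limma 3.58.1 on log2 FPKM with pseudocounts of 1 and 0.1, weights per sample, a replicate block and leaving out each library.

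The genes, lists and tests were chosen with earlier results of these data known. All 10 genes are given, and from each list up to 4 genes with an unadjusted p under 0.05 and no overlap between groups. The genes Adgre1, Csf1r, Cd68, Itgam, Lyz2, Flt3, Zbtb46, Fscn1, Ccr7, Cd5l, G6pdx, Psd, Gm28913 and Gm28914 were named after their values were seen. A symbol with several IDs was represented by its most highly counted ID. The genes most like Rela in level are not reported here.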

Additional observations from a re-analysis of the deposited data

How the results depend on the processing

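None of the 10 genes passed in edgeR or limma under any alternative tried, and DESeq2 called 3, Nfkb2, Relb and Rela. The direction of 8 genes was the same under all 17 alternatives. Ikbkg, near 0, changed sign with upper quartile scaling (-0.0012), with sample weights (-0.0027) and with libraries left out (-0.0338 to 0.0287), as did Rel with libraries left out (-0.0107 to 0.0503). The number of the 10 genes with groups that do not overlap was 4 to 6 with 1 library left out, where smaller groups separate more easily. That number was 3 with library size as the only scaling and 3 on FPKM values. The number with an unadjusted p under 0.05 was 3 or 4 in the test of every alternative. Without single libraries the difference in log2 ratio ran from -0.0804 to 0.0308 for Ikbke to Tbk1 and from -0.0080 to 0.0538 for Relb to Nfkb2. Replicates with the same number did not deviate together (correlations of 0.017 to 0.049). With the replicate block, 0 of the 10 passed and Nfkb2 had a log2 fold change of -0.32 (edgeR adjusted p = 0.188). The level per kilobase of the longest coding transcript was chosen after seeing the data.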
